A study of Mus musculus with 8 samples.

Results

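Cholesterol synthesis was followed through 8 genes in mouse epididymal fat: the mevalonate and isoprenoid enzymes Hmgcs1, Idi1 and Fdps, the squalene and sterol enzymes Fdft1, Sqle, Lss and Cyp51, and Srebf2, the transcription factor that controls them. Their probe sets were taken by gene symbol, as all those whose single symbol was 1 of these 8. These genes, and the gene lists set beside them below, were chosen with earlier results of these data known. The 8 genes had 22 probe sets, of which 16 passed a filter on low signal. All 8 genes were among the 11232 tested, out of 18194 genes with a probe set of a single symbol.

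The mice were 8 C57BL/6J males bought at 6 weeks of age, and total RNA of the fat around the epididymis was measured with 1 Affymetrix mouse genome array per mouse and 2 mice in each of 4 groups. The chow group received no drug and ate, over 24 weeks, a diet in which fat gave 10% of calories, and the other 3 groups ate a high-fat diet (HFD) in which it gave 30%, over the same time. For the next 5 weeks the HFD group received no drug, and the telmisartan and candesartan groups stayed on HFD and drank water with about 3 mg/kg/day of their drug. Both drugs block the angiotensin II type 1 receptor. Telmisartan carries a carboxylic acid on its biphenyl group where candesartan carries a tetrazole ring, and telmisartan is also known as a partial agonist of the nuclear receptor PPARγ. No mouse received a drug on chow, so the drug groups could be compared with HFD and, with diet and drug changed together, with chow.

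Cholesterol is built from acetyl-CoA through mevalonate and isoprenoid units to squalene, which is closed into a ring and then trimmed to cholesterol. When sterols in the endoplasmic reticulum are low, SREBP-2, the protein made from Srebf2, is cut free and switches on the genes of the whole pathway, and insulin and the related SREBP-1c act mainly on fatty acid synthesis. Fat cells store much of the body's free cholesterol in their lipid droplets and make little of it themselves. SREBP-2 binds sterol regulatory elements near the start of its target genes, usually beside a site for the factor NF-Y.

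The bases before the start of 5 members are printed as background. Any link between their letters and the members' signals was not tested. The sequences are from RefSeq (build GRCm38.p6), which held entries for 5 of the 8 members and not for Fdps, Fdft1 and Sqle. Each runs 5′ to 3′ on the gene's strand and ends at the base before its start. Capitals mark TCACNCCAC, the core of a sterol regulatory element, and CCAAT, the NF-Y box, on either strand, so that CCAAT on the other strand reads ATTGG.
Hmgcs1: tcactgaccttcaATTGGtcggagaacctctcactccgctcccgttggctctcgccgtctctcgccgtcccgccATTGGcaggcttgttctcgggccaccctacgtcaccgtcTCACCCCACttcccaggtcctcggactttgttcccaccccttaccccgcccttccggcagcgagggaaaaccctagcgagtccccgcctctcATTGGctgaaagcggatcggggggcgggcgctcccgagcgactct
Idi1: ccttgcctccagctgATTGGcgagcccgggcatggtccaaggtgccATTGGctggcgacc
Lss: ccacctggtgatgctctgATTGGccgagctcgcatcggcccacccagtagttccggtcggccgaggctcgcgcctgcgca
Cyp51: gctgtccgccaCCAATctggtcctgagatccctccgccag
Srebf2: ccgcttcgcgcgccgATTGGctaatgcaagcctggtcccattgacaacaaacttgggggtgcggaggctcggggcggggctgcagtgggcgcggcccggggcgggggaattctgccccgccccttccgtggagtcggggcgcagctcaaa
The windows lie at chr13:119690101-119690350 on the plus strand for Hmgcs1, chr13:8885546-8885605 on the plus strand for Idi1, chr10:76531525-76531604 on the plus strand for Lss, chr5:4104698-4104737 on the minus strand for Cyp51 and chr15:82147119-82147268 on the plus strand for Srebf2. They lie upstream of the annotated start, outside the transcript. In the 250 bases before the start, TCACNCCAC was in 1 of the 5 members, Hmgcs1, where TCACCCCAC began 137 bases before the start. The same letters were in 1.05% of all 32851 promoters of that length. CCAAT was in 5 of 5 members, against 33.8% of all promoters. Hmgcs1 held it 3 times, first letters 237, 176 and 45 bases before the start, and Idi1 held it at 45 and 14 bases. Lss held it at 62 bases, Cyp51 at 29 and Srebf2 at 135. The E-box CACGTG was in 0 of 5 members and in 6.02% of all promoters. None of these matches overlapped another. A match is letters in a window and not a measured binding site, and these arrays measured no binding.

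The 2%-trimmed means of the arrays ran from 178 to 265 before scaling, a ratio of 1.48, with telmisartan array 2 the lowest. The tissue carried its defining genes, as the summed signal of the 8 adipocyte markers with a probe set was 80051 to 95097 on every array. Single markers still differed by diet, as 2 of the 8 were called lower on HFD against chow, where 2.95% of all genes were. Slc2a4 read 1615 and 1673 on chow and 467 and 546 on HFD. Of 7 epididymis and testis markers with a probe set, 0 passed the filter, which is on the mean over the arrays. Their summed signal was 156 on chow array 1 and 42 to 92 on the other 7 arrays. The summed signal of 8 macrophage markers was 16085 to 18131 on the chow arrays, 34158 to 34805 on HFD, 28783 to 39445 on telmisartan and 31611 to 36132 on candesartan. In whole tissue, fewer cells of a type and less RNA per cell cannot be told apart. The 2 chow mice stood apart from each other in the members and in 13 proliferation genes, which were a median of 2.36 higher on the log2 scale on chow array 1. On telmisartan array 1 the summed signal of 5 mesothelial markers was 511, against 1428 to 2916 on the other 7 arrays. Comparisons with chow that turn on 1 chow mouse are therefore given without each chow array too.

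Hmgcs1 was lower on both chow arrays than on any HFD array with or without drug, and Fdft1 was higher on both chow arrays than on any of them. The other 5 enzymes differed more between the 2 chow mice than between any of the group means, with chow array 2 the lowest of the 8 arrays for each. No member passed the test in any of the 6 comparisons, whose threshold was an adjusted p of 0.05 in limma.

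Hmgcs1 makes HMG-CoA, the substrate of the rate-limiting step. Its scaled signal was 5338 and 2964 on the chow arrays, 6498 and 6198 on HFD, 8039 and 6480.1 on telmisartan, and 7282 and 7442 on candesartan. Both chow arrays lay below all 6 others, both candesartan arrays lay above the HFD arrays, and telmisartan array 2 lay between the HFD arrays. Idi1 interconverts the 2 five-carbon isoprenoid units. Its signal was 782 and 497 on chow, 785 and 645 on HFD, 751 and 623 on telmisartan, and 964 and 706 on candesartan. All 4 groups overlapped, and array 1 was the higher in each. Fdps joins those units into farnesyl diphosphate, the branch point to sterols, dolichol, ubiquinone and protein prenylation. Its signal was 2483 and 794 on chow, 1709.7 and 1562 on HFD, 3159 and 1783 on telmisartan, and 1988 and 1816 on candesartan. The chow mice bracketed both HFD mice and both candesartan mice.

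Fdft1, squalene synthase, commits farnesyl diphosphate to sterols. Its signal was 1226 and 1007 on chow, 582 and 593 on HFD, 883 and 474 on telmisartan, and 756 and 565 on candesartan. The chow arrays were the highest 2 of the 8, and the telmisartan mice lay on either side of the HFD mice. Sqle, squalene epoxidase, carries out the first oxygen-dependent step. Its signal was 510.3 and 235 on chow, 359 and 310.1 on HFD, 429 and 320.2 on telmisartan, and 407 and 401 on candesartan. The highest and the lowest of the 8 values were both chow. Lss closes the ring to lanosterol. Its signal was 510.1 and 181 on chow, 515 and 394 on HFD, 706 and 437 on telmisartan, and 496 and 432 on candesartan. Chow array 1 lay among the HFD-fed mice and chow array 2 far below all of them.

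Cyp51 removes the 14α-methyl group of lanosterol. Its signal was 782 and 245 on chow, 499 and 402 on HFD, 688 and 404 on telmisartan, and 485 and 548 on candesartan. As for Sqle, chow supplied both extremes. Srebf2 encodes the regulator and is itself a target of SREBP-2. Its signal was 206 and 234 on chow, 280.3 and 271 on HFD, 214 and 229 on telmisartan, and 225 and 240.1 on candesartan. By this probe set, 1452174_at, the HFD arrays were the highest 2 of the 8, and the 3 other groups overlapped.

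**Figure D1:**
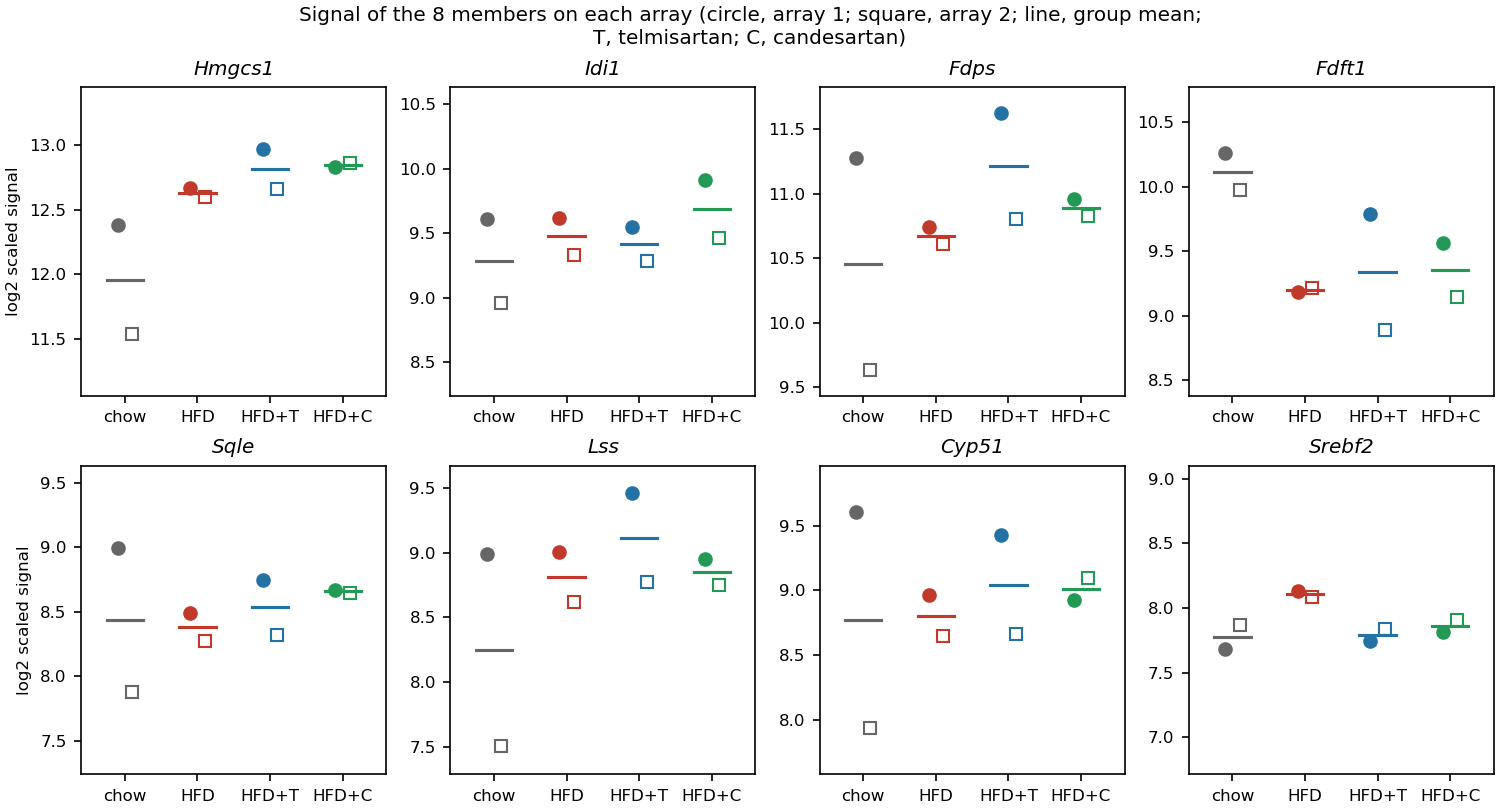
Each panel plots 1 member on a log2 scale of scaled signal, with every vertical axis spanning the same number of log2 units; the horizontal axis gives the 4 groups of 2 mice. Filled circles are array 1, open squares array 2 and lines the group means: chow array 2 is the lowest point for Hmgcs1, Idi1, Fdps, Sqle, Lss and Cyp51, and both chow points of Fdft1 lie above all others.

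On HFD against chow, the diet comparison, Fdft1 had a log2 difference of −0.92 (95% CI −1.55 to −0.29) and a limma adjusted p of 0.0807. Hmgcs1 was 0.67 above chow (CI 0.13 to 1.22; limma adjusted p 0.126), a ratio of 1.60. These 2 of 8 members had an unadjusted p under 0.05, as did 2710 of the 11232 genes. Adjusted over all genes, 0 of 8 members were called, against a background of 8.09% of genes. The arrays did not overlap for 3 of 8 members, Hmgcs1 and Srebf2 being higher on HFD and Fdft1 lower, against 58.1% of all genes, so this count was below the background. Srebf2 differed by 0.33 (CI −0.01 to 0.67; limma adjusted p 0.222). Lss differed by 0.57, Fdps by 0.22, Idi1 by 0.19, Cyp51 by 0.03 and Sqle by −0.05, with intervals for Fdps of −0.83 to 1.27 and for Cyp51 of −1.04 to 1.11 that reach past 1 log2 unit. The median of the 8 was 0.20, beside −0.01 over all genes tested.

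Most of these values turned on which chow mouse was kept. Without chow array 1 the median of the 8 on HFD against chow was 0.69 and Hmgcs1 was called at 1.10 (limma adjusted p 0.0106). Without chow array 2 the median was −0.39, Hmgcs1 was at 0.25 (limma adjusted p 0.339), Fdps moved from 1.04 without array 1 to −0.60, Cyp51 from 0.87 to −0.80, Lss from 1.31 to −0.18, Idi1 from 0.52 to −0.14 and Sqle from 0.50 to −0.61. Srebf2 was at 0.24 without array 1 and 0.42 without array 2. Fdft1 kept its direction at −0.78 without array 1 and −1.06 without array 2, with limma adjusted p of 0.264 and 0.118. It was called on HFD against chow when telmisartan array 1 (0.0104) or array 2 (0.0100) was left out, both from limma as adjusted p, with the difference itself at the same −0.92.

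Against HFD, telmisartan and candesartan changed no member by the test. Both comparisons share the HFD arrays, so they are not independent. With telmisartan, 0 of 8 members were called, as were 0% of all genes, and 696 genes had an unadjusted p under 0.05. The largest difference was for Fdps, 0.54 (CI −0.51 to 1.59; limma adjusted p 0.797), followed by −0.32 for Srebf2 (CI −0.66 to 0.02; 0.766). The arrays did not overlap for these 2 members, against 37.9% of all genes. Lss differed by 0.30, Cyp51 by 0.24, Hmgcs1 by 0.19, Sqle by 0.15, Fdft1 by 0.14 and Idi1 by −0.06. The median of the 8 was 0.17, beside −0.01 over all genes, and went to −0.10 without telmisartan array 1 and to 0.48 without array 2. With the signals left as deposited it was −0.06, beside −0.24 over all genes, and with median centring 0.44, beside 0.26 over all genes.

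With candesartan, 0 of 8 members and 0% of all genes were called, and 140 genes had an unadjusted p under 0.05. The arrays did not overlap for 4 members, Hmgcs1, Fdps and Sqle being higher and Srebf2 lower, against 33.4% of all genes. Sqle differed by 0.28 (CI −0.45 to 1.01), Fdps by 0.22, Hmgcs1 by 0.21 (CI −0.33 to 0.76), Idi1 by 0.21, Cyp51 by 0.20, Fdft1 by 0.15 and Lss by 0.04. Srebf2 differed by −0.25 (CI −0.59 to 0.09). The median of the 8 was 0.21 with 7 of 8 above 0, beside 0.0042 over all genes. It was 0.07 with 4 of 8 above 0 without candesartan array 1, and 0.11 without HFD array 2.

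Srebf2 therefore read lower on both drugs than on HFD, but its second probe set did not follow. That probe set, 1426744_at, gave −0.05 for HFD against chow, −0.04 for telmisartan against HFD and 0.10 for candesartan against HFD. The probe set used, 1452174_at, gave 0.33, −0.32 and −0.25. The 2 also ran opposite ways between the chow mice, with array 1 lower by the first (−0.19) and higher by the second (0.44).

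The drugs were given at 1 dose for the same time and were compared directly. Of the 8 members, 0 were called, as were 0% of all genes, and 550 genes had an unadjusted p under 0.05. The arrays of the 2 drugs overlapped for all 8 members, while they did not for 32.2% of all genes. The difference, telmisartan minus candesartan, was 0.32 for Fdps (CI −0.73 to 1.37), 0.26 for Lss (−0.72 to 1.24), −0.27 for Idi1 (−0.83 to 0.29) and −0.12 for Sqle (−0.85 to 0.60). It was −0.03 for Hmgcs1 (−0.57 to 0.51), −0.02 for Fdft1 (−0.64 to 0.61), 0.03 for Cyp51 (−1.04 to 1.11) and −0.07 for Srebf2 (−0.41 to 0.27). The median of the 8 was −0.02, and it was −0.26 with 0 of 8 above 0 without telmisartan array 1 and 0.27 with 6 of 8 above 0 without telmisartan array 2. These intervals are wide with 2 mice a group, and limma adjusted p-values of 0.928 or more do not show that the drugs act alike.

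**Figure D2:**
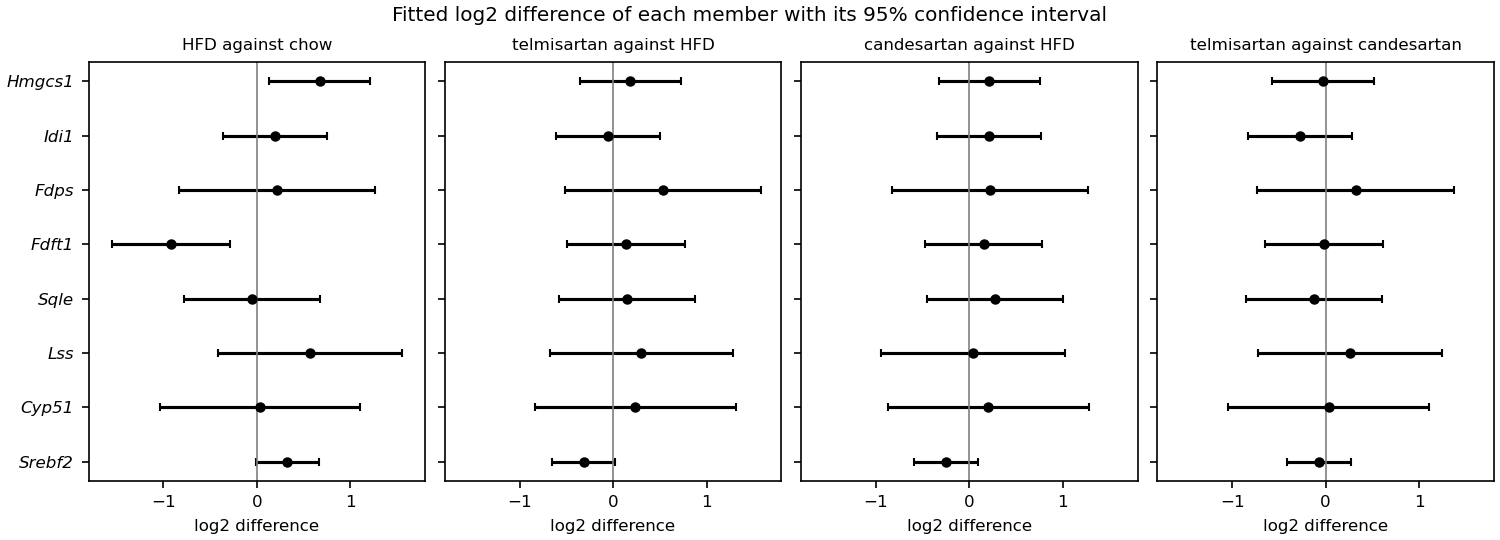
Points are the fitted log2 difference of each member, bars its 95% confidence interval, and the 4 panels are 4 comparisons of 2 mice against 2. The interval lies off 0 for Hmgcs1 and Fdft1 on HFD against chow before adjustment over genes, and covers 0 for all 8 members in the other 3 panels.

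The HFD-fed groups on drug, set against chow, gave Hmgcs1 and Fdft1 the smallest p of the 8 members. These comparisons share the chow arrays with the diet comparison. For telmisartan, Hmgcs1 was 0.86 above chow (CI 0.32 to 1.40; limma adjusted p 0.0612) and Fdft1 differed by −0.78 (CI −1.41 to −0.15; 0.123). For candesartan, Hmgcs1 was 0.89 above chow (CI 0.35 to 1.43; limma adjusted p 0.0641) and Fdft1 differed by −0.76 (CI −1.39 to −0.14; 0.151). In each, 0 of 8 members were called, against 8.44% of genes for telmisartan and 6.59% for candesartan. The arrays did not overlap for 2 members, Hmgcs1 and Fdft1, against 47.6% of genes for telmisartan and 53.7% for candesartan. Lss differed from chow by 0.87 for telmisartan (CI −0.11 to 1.85; limma adjusted p 0.253) and by 0.61 for candesartan (CI −0.37 to 1.59; 0.469).

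The chow arrays weighed as much here. Without chow array 1, Hmgcs1 was called at 1.28 for telmisartan (limma adjusted p 0.0076) and 1.31 for candesartan (0.0076), and for telmisartan Fdps (1.58; limma adjusted p 0.026) and Lss (1.62; 0.025) were called too. Without chow array 2, Hmgcs1 stood at 0.44 and 0.46, Fdps at −0.07 and −0.39 and Lss at 0.12 and −0.14, and none was called. Fdft1 against chow ranged from −1.23 without telmisartan array 1, when it was called (limma adjusted p 0.0075), to −0.33 without telmisartan array 2 (0.375). On candesartan against chow Fdft1 was at −0.62 without chow array 1 and −0.91 without chow array 2, and both Hmgcs1 and Fdft1 were called when either telmisartan array was left out, with limma adjusted p down to 0.0237 for Fdft1.

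The probe sets of Hmgcs1 and Fdft1 that passed the filter read the same way, and those of Idi1 and Cyp51 did not. For Hmgcs1, 4 probe sets passed the filter, and HFD against chow gave 0.67 for 1433443_a_at, 0.51 for 1433445_x_at, 0.37 for 1433444_at and 0.31 for 1433446_at. When every probe set was tested on its own, 1433445_x_at passed for telmisartan against chow (0.65; limma adjusted p 0.0216) and candesartan against chow (0.67; 0.024), and was at 0.0552 for HFD against chow. Its chow arrays differed by 0.30, against 0.85 for the probe set used. For Fdft1, 1448130_at gave −0.82 for HFD against chow beside −0.92 for 1438322_x_at. The other 2 probe sets of Fdft1 were below the filter, with signals up to 33.6 and 25.6. For Idi1, 1423804_a_at gave −0.14 on HFD against chow beside 0.19 for 1451122_at, and for Cyp51, 1422533_at gave −0.42 beside 0.03 for 1450646_at. For Lss, 1426913_at gave 0.35 beside 0.57 for 1420013_s_at. A probe set ending in _x_at can also bind similar transcripts.

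The 2 chow mice differed across the pathway. Chow array 1 was higher than chow array 2 by 1.68 for Cyp51, 1.65 for Fdps, 1.49 for Lss, 1.12 for Sqle, 0.85 for Hmgcs1, 0.65 for Idi1 and 0.28 for Fdft1, and was 0.19 lower for Srebf2, all on the log2 scale. For 4 of 8 members the gap was at least 1, against 2.15% of all genes tested. The median gap was 0.98, beside 0.0035 over all genes with an SD of 0.44. Chow array 2 was the lowest of the 8 arrays for 6 members, against 17.5% of all genes. By the probe set used, the regulator Srebf2 was not among them. By its second probe set, which also passed the filter, chow array 2 was the lowest array (188) and chow array 1 the highest (255). The contrast of Srebf2 with the enzymes therefore depended on the probe set.

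The telmisartan mice differed in the same sense by less. Telmisartan array 1 was higher for 7 of 8 members, by a median of 0.56, with 0.90 for Fdft1, 0.82 for Fdps and 0.77 for Cyp51, beside a median of −0.02 and an SD of 0.48 over all genes. The HFD mice differed by a median of 0.17 and the candesartan mice by 0.08. Idi1, Fdps, Sqle and Lss were higher on array 1 in all 4 groups, 4 of 8 members against 11.6% of all genes. The array numbers name mice within a group, and no label ties mice of different groups together.

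**Figure D3:**
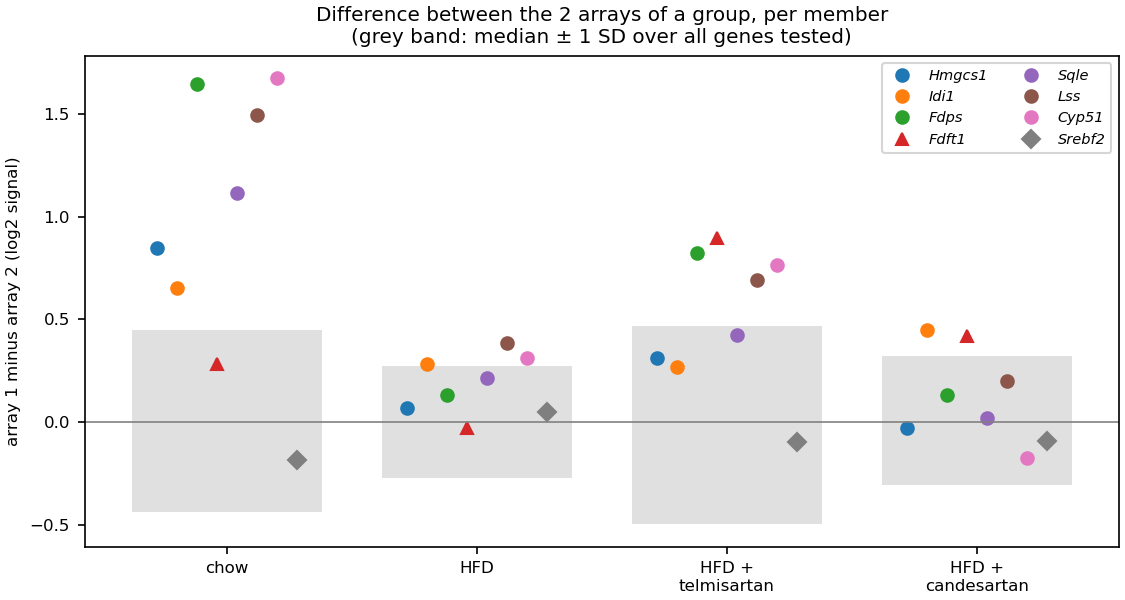
Each point is a member's log2 signal on array 1 minus array 2 of a group, and the grey band is the median ± 1 SD of that difference over all 11232 genes tested. In chow, 6 members lie above the band, Fdft1 and Srebf2 lie inside it, and 4 of the 8 differ by at least 1.

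Most of the enzymes varied together from mouse to mouse. Over the 8 arrays, the 15 pairs among Hmgcs1, Idi1, Fdps, Sqle, Lss and Cyp51 had Pearson r of 0.65 to 0.97, and −0.07 to 0.94 without chow array 2. These 6 were grouped after their values were seen. Fdft1 had r of −0.47 to 0.25 with the 6, and −0.26 to 0.88 without chow array 2. Srebf2 had r of −0.47 to 0.01 with the 6, and −0.78 to −0.04 without that array. These are descriptions over 8 or 7 arrays that share the 4 groups and 1 scaling per array. By the probe sets used, Srebf2 was the only one of the 8 members whose highest 2 arrays were those of HFD. By its second probe set the highest array was chow array 1, and the r values above are for the probe set used.

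Genes outside the members were ranked by Pearson r over the 8 arrays to the members' mean standardized signal, with clone names skipped. The first 10 included 2 later enzymes of the same pathway. These were Msmo1, the sterol C4 demethylase (r = 0.95), and Hsd17b7, a 3-ketosterol reductase (0.94). The others were Mad2l1bp (0.97), Wdr20 (0.97), Rabif (0.96), Prdm4 (0.95), Mfsd13a (0.95), Tecr, an enzyme of very long chain fatty acid elongation (0.94), Tpgs1 (0.94) and Acoxl (0.94). Without chow array 2, r was 0.85 for Msmo1, 0.93 for Hsd17b7 and 0.97 for Rabif. Msmo1 read 904 and 351 on chow, and Hsd17b7 354 and 188, the lowest value of each being chow array 2.

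Of 15 further mevalonate and sterol enzymes, 12 were tested, and 0 rose or fell in any of the 6 comparisons. Their median for HFD against chow was 0.07, for telmisartan against HFD 0.34 and for candesartan against HFD 0.15. The first was 0.49 without chow array 1 and −0.44 without chow array 2, and the second 0.07 without telmisartan array 1 and 0.57 without telmisartan array 2. Dhcr7, the last enzyme of the Kandutsch-Russell branch, and Lbr, a sterol C14 reductase that also anchors the nuclear lamina, had the smallest p on HFD against chow. Dhcr7 read 519.6 and 169 on chow, 605 and 524 on HFD, 836 and 757 on telmisartan, and 576 and 616 on candesartan. Its arrays on HFD did not overlap those on chow, and the difference was 0.93 (CI −0.02 to 1.88; limma adjusted p 0.218). The difference rested on chow array 2: it was 0.12 without that array and 1.74, a call (limma adjusted p 0.0064), without chow array 1. Lbr differed by −0.38 (CI −0.85 to 0.09; limma adjusted p 0.300), and by −0.09 without chow array 1 and −0.67 without chow array 2. Between the chow mice, 11 of the 12 were higher on array 1, by a median of 1.08, and 6 by at least 1. Against the members' mean, 9 of the 12 had r above 0.7, as did 4.98% of all genes; without chow array 2, 5 of the 12 did, against 13.5% of all genes.

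Genes of SREBP control and sterol uptake were pooled here with those of cholesterol efflux, storage and oxysterols. Of the 20 tested, 5 rose on HFD against chow, where 5.15% of all genes tested did. Among the 5 was Cyp7b1, which read only 32.1 and 18.6 on chow. Of 13 genes of SREBP control and sterol uptake, 11 were tested, and 2 rose on HFD against chow. These were the lysosomal cholesterol carriers Npc1 (0.93, CI 0.47 to 1.39; limma adjusted p 0.0285) and Npc2 (0.50, CI 0.28 to 0.71; 0.0176). Npc1 read 164 and 166 on chow and 314.5 and 315.5 on HFD. Its call ended when any array but the telmisartan ones was left out, and that of Npc2 without chow array 1 or either HFD array, with median centring (0.40; limma adjusted p 0.402) and with signals as deposited (0.37; 0.308). On candesartan against chow they rose by 0.91 (limma adjusted p 0.0339) and 0.43 (0.0337), calls that ended when any chow, HFD or candesartan array was left out. On telmisartan against chow Npc2 rose by 0.60 (limma adjusted p 0.0083) and Npc1 was at 0.67 (0.079). That call ended with signals as deposited (0.25; limma adjusted p 0.358), with median centring (0.0732), without the filter (0.067) and with only those groups fitted (0.0865).

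Of 12 genes of cholesterol efflux, storage and oxysterols, 9 were tested, and 3 rose on HFD. Lipa, the lysosomal acid lipase that frees cholesterol from its esters, read 883 and 846 on chow and 3507 and 3626 on HFD, a rise of 2.04 (CI 1.56 to 2.52; limma adjusted p 0.0013) that passed under every alternative run. Abcg1, a cholesterol exporter, rose by 1.09 (CI 0.69 to 1.49; limma adjusted p 0.0088), and without HFD array 1 or 2 its adjusted p was 0.0548 or 0.106. Cyp7b1, an oxysterol hydroxylase, rose by 1.54 (CI 0.67 to 2.41; limma adjusted p 0.0446). It read low, at 32.1 and 18.6 on chow and 86.3 and 58.6 on HFD. The filter was on the mean over all arrays, which the HFD-fed groups raised for this gene. The rise did not pass when chow array 2 or any HFD or candesartan array was left out. Nor did it pass with quantile normalization, median centring or signals as deposited. With the mean over probe sets (limma adjusted p 0.084), every probe set tested (0.0599) or only those 2 groups fitted (0.074), it did not pass either. On these arrays 7 of 8 macrophage markers were also higher on HFD, by a median of 1.45, and their part in these rises was not tested.

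Of 15 fatty acid synthesis genes tested, 3 fell on HFD against chow and 0 rose, where 2.95% of all genes fell. Acaca, which makes malonyl-CoA, read 4144 and 2469 on chow and 1002 on each HFD array, and fell by 1.67 on the log2 scale (limma adjusted p 0.0032). Thrsp, a regulator of lipogenesis, fell by 1.31 (limma adjusted p 0.0017), and Mlxipl, the carbohydrate-responsive factor ChREBP, fell by 1.01 (0.0197), a call that ended without either chow or either HFD array. Fads1, a fatty acid desaturase, fell by 0.76 on telmisartan against chow (limma adjusted p 0.0366), a call that ended when any array but telmisartan array 1 was left out, and was at −0.51 and −0.52 on HFD and candesartan against chow, with no call. Its difference between telmisartan and HFD was −0.25 (limma adjusted p 0.778). The list's median was −0.51, beside 0.20 for the 8 members, and went to 0.08 without chow array 1 and −0.90 without chow array 2. Of its 15 genes 14 were higher on chow array 1 than on array 2, by a median of 0.83.

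Of 10 genes of the dolichol, ubiquinone and prenylation branches that start from the product of Fdps, 9 were tested and 1 rose. Nus1, a subunit of the enzyme that makes dolichol, was 0.93 higher on HFD than chow (limma adjusted p 0.0065), and its adjusted p was 0.0848 without HFD array 1, 0.0578 without array 2 and 0.0653 with the mean over its probe sets. Of 13 proliferation genes tested 1 also rose, both counts standing beside 5.15% of all genes. It was the replication clamp Pcna, at 0.85 (limma adjusted p 0.0199). It did not pass when chow array 2 or either HFD array was left out, nor with median centring or signals as deposited. Against HFD, neither drug changed a gene of these lists by the test. Without the filter on low signal, Lipa, Thrsp and Nus1 kept their calls on HFD against chow, and Npc1, Npc2, Abcg1, Cyp7b1, Acaca, Mlxipl and Pcna did not.

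Proliferation genes moved with the members between the chow mice. All 13 were higher on chow array 1, 11 of them by at least 1, as were 2.15% of all genes. With the members' mean, 10 of the 13 had r above 0.7, against 4.98% of all genes. Without chow array 2 only 1 of the 13 did, against 13.5% of all genes. Between the telmisartan mice 4 of the 13 were higher on array 1, where 7 of the 8 members were. The adipocyte markers were lower on chow array 1 for 8 of 8 genes, by a median of 0.16. Higher on chow array 1 were the endothelial markers for 5 of 6, by a median of 0.36, and the mesothelial ones for 4 of 5, by 0.35. The fibroblast and progenitor markers were higher there for 4 of 6, by 0.29. The macrophage markers were higher there for 1 of 8, the B, T and NK cell ones for 1 of 4 and the mast cell ones for 1 of 5. On telmisartan array 1 the macrophage markers were lower for 8 of 8, by a median of 0.64, and the mesothelial ones for 5 of 5, by 1.68. Also lower there were the B, T and NK cell markers for 4 of 4, by 1.07, and the mast cell ones for 5 of 5, by 0.99. The endothelial ones were lower for 6 of 6, by 0.19. The adipocyte markers were higher there for 6 of 8, by a median of 0.21, and the fibroblast and progenitor ones for 2 of 6. What part any of these cells or cycles had in the members' values was not tested.

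**Figure D4:**
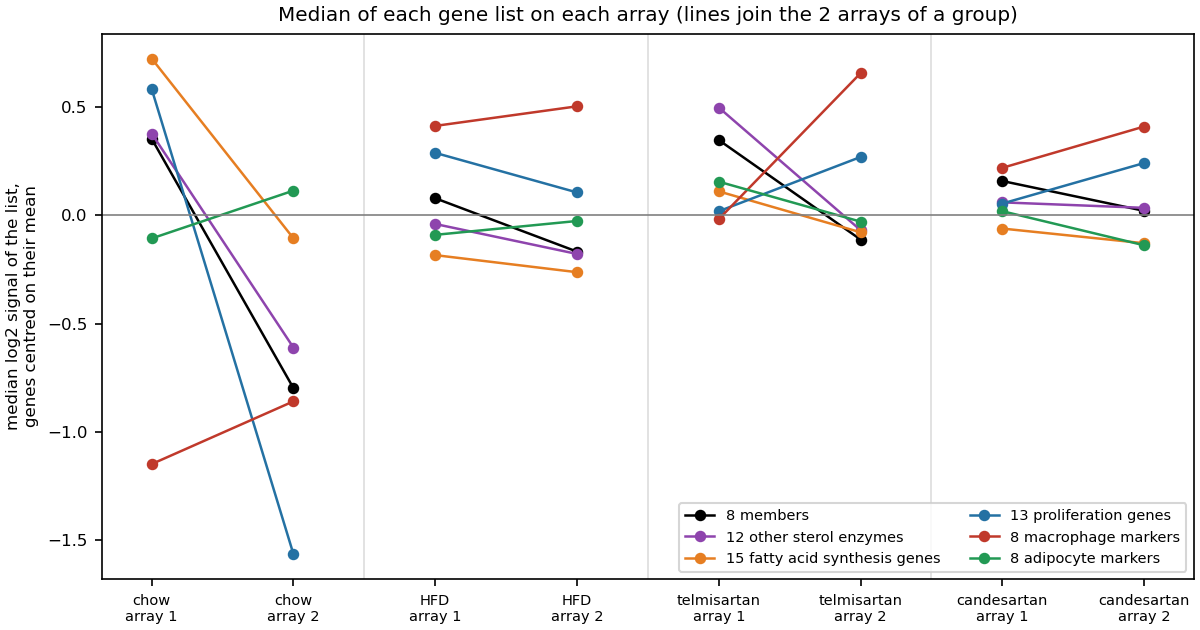
Each line joins the 2 arrays of a group and gives the median log2 signal of a gene list on each array, every gene centred on its mean over the 8 arrays. The 8 members, at 0.35 and −0.80 on the chow arrays, and 12 other sterol enzymes, at 0.38 and −0.61, follow each other. The median of the adipocyte markers lies between −0.14 and 0.15 on every array, though single markers differ more.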

How the data were processed

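The deposited values were linear signal intensities, 1 per probe set, that the authors obtained from the GeneChip Analysis Suite, per the series design text, with its version and scaling not stated there. Of 45101 probe sets, 34958 had a single gene symbol in the platform annotation. Each array was multiplied to give all the same 2%-trimmed mean, floored at the 20th percentile of all values (signal 6.69) and put on a log2 scale. Probe sets at or above the 50th percentile of mean log2 signal were kept, and each gene was read by its brightest one. The limma package (3.58.1, R 4.3.3; lmFit, eBayes with a trend, 4 group means, 8 arrays, 4 residual degrees of freedom) gave two-sided p-values, adjusted by Benjamini-Hochberg over 11232 genes and tested on simulated data. Replicates were separate mice, and their number limits the precision.

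The members and lists were chosen with earlier results of these data known. Named were the 8 members and up to 4 called genes of each list (or, with none called, the 2 with the smallest p on HFD against chow). The 10 genes most like the members, with clone names skipped, were named too. Alternatives changed the normalization, floor, filter, probe set rule, variance model, samples fitted and replicate block, and left out each array. No label pairs the mice, so the numbers were not taken to do so. Replicate differences correlated between groups at −0.041 to 0.206 over all genes, which cannot decide the question.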

Additional observations from a re-analysis of the deposited data

How the results depend on the processing

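Of 1008 values of single members under the alternatives, 20 became called and 0 reversed a call. Without a call, 57 values changed sign, 21 of them by at least the replicate spread. The remaining 967 of the 1008 were counted as unchanged. A shift was set against that spread only where the sign changed, so the 967 include large shifts. Cyp51 on HFD against chow, for example, went from 0.03 to 0.87 without chow array 1. The count of members called, 0 in each comparison, became 1 for candesartan against chow with quantile normalization or the mean over probe sets (Hmgcs1 both times), 1 for telmisartan against chow with signals as deposited (Fdft1), and 1 for HFD against chow when only those groups were fitted (Fdft1). With the replicate block it was 1 for HFD against chow (Fdft1), 2 for telmisartan against chow (Hmgcs1 and Fdft1) and 1 for candesartan against chow (Hmgcs1). The block was kept as an alternative because no label pairs the mice. The replicate differences correlated between groups at −0.041 to 0.206, which cannot decide whether the numbers pair them. Leaving out 1 array gave 0 to 1 members called on HFD against chow, 0 to 3 on telmisartan against chow and 0 to 2 on candesartan against chow, and medians of the 8 of −0.392 to 0.694, −0.129 to 0.882 and −0.238 to 0.928. The cause was not tested, beyond the array or samples left out. Median centring and unscaled signals moved the median of all genes by over 0.1, to 0.26 and −0.24 for telmisartan against HFD. Calls over all genes on HFD against chow ran from 165 without HFD array 2 to 1611 without telmisartan array 2, beside 909. Of 1632 values of the listed genes named, 133 lost a call and 12 gained one. The others kept their call or lack of one, 27 of them changing sign by at least the replicate spread and 1460 not. Medians of the gene lists without each array were added after seeing the data.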
